A study of Rattus norvegicus with 9 samples.

Results

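The genes described here are the solute carriers that move amino acids, small peptides, related amines and monocarboxylates across cell membranes. They were taken as every probe set with a single gene symbol of the families Slc1, Slc3, Slc6, Slc7, Slc15, Slc16, Slc36, Slc38 or Slc43 (family number, the letter a and a final number). Where a gene had several probe sets, the one with the largest mean log2 intensity across the 9 arrays stood for it. This gave 63 genes of 14217 on the array, measured by 85 probe sets in all, and 15 of the genes had more than 1 probe set. Messenger RNA was measured in tongue of male Sprague-Dawley rats, with 3 arrays in each of 3 groups. The normal group drank distilled water. In the 4NQO group the drinking water held 0.002% 4-nitroquinoline oxide, a carcinogen that induces dysplasia and squamous cell carcinoma of the rat tongue. The IL-1Ra group received 4NQO as well, together with IL-1 receptor antagonist, a protein that blocks IL-1 receptor I. By the labels, carcinogen-fed animals were taken from week 14 to 22, once lesions could be seen. By the methods, 4NQO was stopped after 14 weeks, IL-1Ra (or saline in the 4NQO group) was then injected weekly under the mucosa, and killing followed when week 22 ended. In the sources used here, neither the age of the rats nor the lesion stage of a sampled tongue was given. The labels do not say that each sample was a separate animal, so the p-values measure only the spread between these samples.

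Cells take up amino acids through carriers that differ in substrate and in driving force. Some run on the sodium gradient (Slc1, Slc6, Slc38) or on protons (Slc15, Slc36), and others swap one amino acid for another (Slc3 and Slc7 pairs). In an exchanger pair, a heavy chain of Slc3 brings a light chain of Slc7 to the membrane, and the light chain carries the substrate. When amino acids run short, the transcription factor ATF4 is known to raise several carriers, amino acid synthesis enzymes and aminoacyl-tRNA synthetases, and the best known Slc16 members carry lactate and pyruvate together with protons.

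The tongue samples were bulk tissue, so fewer cells of a type and less RNA per cell cannot be told apart. Skeletal muscle markers were high on every array, with the mean log2 intensity of 11 genes between 10.88 and 11.43, and no gene of the keratinocyte or fibroblast lists stayed below the lower quartile on every array. Of the salivary gland list, Prr27, Smgc and Car6 stayed below the lower quartile on every array. The mean of 7 basal keratinocyte markers was 9.41 to 9.89 log2 in normal, 10.39 to 11.27 in 4NQO and 10.39 to 10.53 in IL-1Ra, and 4 of the 7 passed the test as higher in 4NQO than in normal. The mean of 11 markers of the upper keratinocyte layers was 10.83 to 11.32, 8.95 to 10.94 and 11.58 to 11.73 in the same order, with 3 of the 11 lower in 4NQO than in normal and 2 higher in IL-1Ra than in 4NQO. The 7 fibroblast markers averaged 10.91 to 11.20, 8.83 to 10.62 and 10.33 to 10.78, with 6 of the 7 lower in 4NQO than in normal. The 6 endothelial markers averaged 7.26 to 7.53, 7.82 to 8.18 and 7.43 to 7.72, with 4 of the 6 higher in 4NQO. Of the 11 muscle markers, 1 was lower in IL-1Ra than in 4NQO. By the same test, described below, 14.9% of all probe sets passed in 4NQO against normal and 2.33% in IL-1Ra against 4NQO. RNA quality was read from the 3′ minus 5′ probe set values for beta-actin, on the log2 scale, which were 0.74 to 0.86 in normal, 1.07 to 1.29 in 4NQO and 0.98 to 1.27 in IL-1Ra. The same difference for hexokinase was 1.47 to 1.53 in normal, 1.29 to 1.78 in 4NQO and 1.80 to 2.20 in IL-1Ra, where the IL-1Ra arrays lay above all others. Of the arrays, 4NQO array 3 held the highest value of 13 of the 63 carriers and the lowest of 12, where it held the highest of 16.1% and the lowest of 14.3% of all probe sets, and normal array 2 held the highest of 14 carriers and of 11.5% of all probe sets. The part of cell composition or RNA quality in the results below was not tested.

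Setting 4NQO against normal tongue addresses how these carriers differed after carcinogen exposure. By the methods the 4NQO group also received saline injections into the tongue, which are not described for the normal group. Carcinogen and injection cannot be told apart here. A linear model over all 9 arrays (limma) was fitted to all 31042 probe sets, and a gene passed when its p-value, adjusted by Benjamini-Hochberg over all of them, was below 0.05. Of the 63 carriers, 11 passed, 9 of them higher and 2 lower in 4NQO. This was 17.5% of the carriers. Among all probe sets 14.9% passed (9.41% higher and 5.44% lower), and among all genes by their brightest probe set 17.4%, so the share of carriers was near the background. At an unadjusted p of 0.05, 21 carriers differed by limma, where 32.9% of all probe sets did. The median difference was 0.03 log2 for the carriers, 0.01 for all probe sets and 0.08 for all genes. The carriers that rose transport glutamate (Slc1a3), neutral amino acids and glutamine (Slc1a4, Slc1a5, Slc7a5 with its heavy chain Slc3a2), taurine (Slc6a6) and monocarboxylates or their relatives (Slc16a1, Slc16a9, Slc16a13). Those that fell were the peptide carrier Slc15a1 and the light chain Slc7a12.

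Setting IL-1Ra against 4NQO addresses what the antagonist added under carcinogen exposure. Slc15a1 was higher and Slc16a1 lower in IL-1Ra, and the other 61 carriers did not pass (limma). The 2 calls were 3.17% of the carriers, against 2.33% of all probe sets (1.59% higher and 0.731% lower). Their median difference was -0.05 log2, against -0.02 for all probe sets and -0.04 for all genes. Between IL-1Ra and normal, 0 carriers passed by limma, where 1.87% of all probe sets did. At an unadjusted p of 0.05, 13 carriers differed by limma and 16 by the methods' t-test, which after adjustment passed 0, while 22.7% of all probe sets had an unadjusted limma p this low. The study's threshold for the arrays is a fold of 2 or 1.5 with a detection p, and its methods name no test between groups for them. With a fold of 2 and an unadjusted p below 0.05 by the methods' t-test, 4 carriers passed in 4NQO against normal, 1 in IL-1Ra against 4NQO and 2 in IL-1Ra against normal, beside 1.46%, 1.15% and 0.628% of all probe sets. With a fold of 1.5 the counts were 10, 3 and 6, beside 7.25%, 3.25% and 4.48%. The 3 comparisons share arrays, so a value of one recurs in another.

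**Figure D1:**
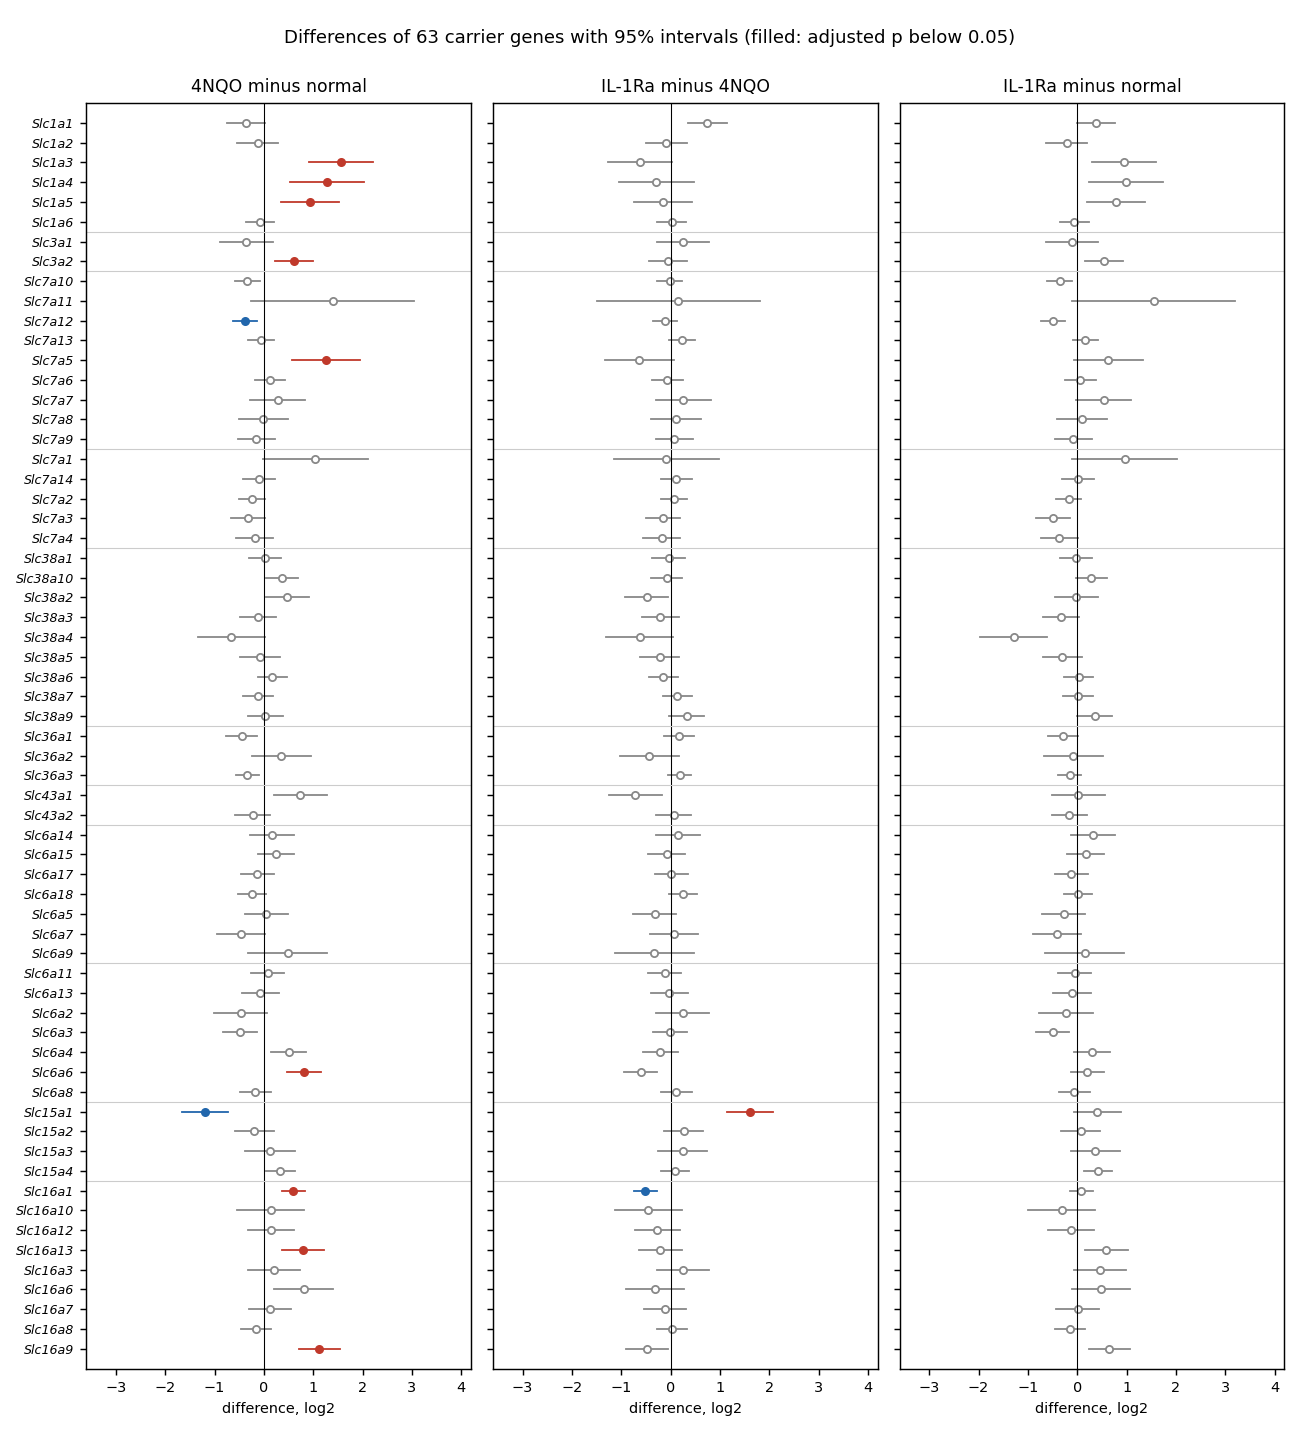
Differences in log2 intensity of the 63 carriers (rows, grouped by family) for the 3 comparisons (panels), with points for the estimate, lines for the 95% interval from limma and filled points where the adjusted p was below 0.05. In 4NQO against normal 9 filled points lie right of 0 and 2 left of it, in IL-1Ra against 4NQO 1 lies on each side, and in IL-1Ra against normal none is filled.

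For 47 of the 63 carriers the RefSeq table (build GRCr8) held a promoter window, and the 250 bases before the annotated start were searched on both strands for 3 motifs of pathways that act on carrier genes. These were the amino acid response element bound by ATF4 and its partners (TGATGNAA), the antioxidant response element bound by NRF2 (TGACNNNGC) and the E-box (CACGTG) bound by factors such as MYC. They occurred in 3.4%, 10.1% and 5.59% of all 33469 windows and in 3, 10 and 8 of the 51 windows of carriers. Of the 8 carriers with a window that passed in a comparison, 1 held the first, 4 the second and 3 the third. A match is only a run of letters, and no match says only that these letters are not in the window. The windows are printed where each gene is first described, 5′ to 3′ on the strand of the gene, with motif matches in capitals.

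Of the 4 peptide and histidine carriers measured, Slc15a1 changed and the other 3 did not pass in any comparison. Slc15a1 (PepT1), the proton-coupled carrier of dipeptides and tripeptides best known from the small intestine, was 5.90, 6.03 and 6.18 log2 on the normal arrays, 5.36, 4.40 and 4.75 on the 4NQO arrays and 6.54, 6.52 and 6.29 on the IL-1Ra arrays. All 4NQO arrays lay below all normal and all IL-1Ra arrays. 4NQO differed from normal by -1.20 log2 (95% interval -1.67 to -0.73), a level 2.30-fold lower (limma adjusted p = 0.00947). IL-1Ra was 3.05-fold higher than 4NQO, with a difference of 1.61 log2 (95% interval 1.14 to 2.08, limma adjusted p = 0.00578). Both comparisons rest on the same 4NQO arrays. Against normal, IL-1Ra differed by 0.41 log2 (95% interval -0.06 to 0.88, limma adjusted p = 0.278). Both calls stood with each of the 9 arrays left out in turn, at differences of -1.46 to -0.98 and 1.39 to 1.87 log2. Of the 11 markers of the upper keratinocyte layers, 3 were also lower in 4NQO than in normal and 2 higher in IL-1Ra than in 4NQO. Asprv1, a protease of the granular layer, was among both and had the largest difference of that list in each. It was at -3.04 log2 in 4NQO against normal (limma adjusted p = 0.00783) and 3.10 in IL-1Ra against 4NQO (limma adjusted p = 0.0144). In 4NQO against normal 8 of the 11 markers did not pass, and 1 of these was above 0, at 1.86 log2. In IL-1Ra against 4NQO 9 did not pass, and all 11 were above 0. The part of these layers in the result was not tested.

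The promoter window of Slc15a1 is shown because it has the largest difference of a called carrier in IL-1Ra against 4NQO. It lies at chr15:104949345-104949594 on the minus strand, and its capitals mark a match to the antioxidant response element on the other strand, 240 bases before the start.
Slc15a1: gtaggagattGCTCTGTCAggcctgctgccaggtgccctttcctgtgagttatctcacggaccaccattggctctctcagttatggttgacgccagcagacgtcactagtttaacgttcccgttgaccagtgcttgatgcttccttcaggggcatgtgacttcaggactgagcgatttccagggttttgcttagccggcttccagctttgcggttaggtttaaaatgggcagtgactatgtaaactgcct

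Slc15a2, a peptide carrier of higher affinity, differed by -0.20 log2 in 4NQO against normal (limma adjusted p = 0.461). Slc15a3 and Slc15a4, which carry histidine and peptides in lysosomes and endosomes, differed by 0.12 and 0.33 (limma adjusted p = 0.735 and 0.107).

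Among the 9 monocarboxylate carriers and relatives measured, 3 were higher in 4NQO than in normal and none lower, with a median difference of 0.20 log2. In this comparison 14.9% of all probe sets and 17.4% of all genes passed. Slc16a1 (MCT1), which carries lactate and pyruvate, was 9.52, 9.59 and 9.52 log2 on the normal arrays, 10.12, 10.29 and 10.01 on the 4NQO arrays and 9.64, 9.61 and 9.63 on the IL-1Ra arrays. The 4NQO arrays lay above all others. The rise in 4NQO was 0.59 log2 (95% interval 0.36 to 0.82, 1.51-fold, limma adjusted p = 0.00916), and it passed with each array left out. The fall from 4NQO to IL-1Ra was -0.51 log2 (95% interval -0.74 to -0.28, limma adjusted p = 0.0365). That call was weak: with 1 array left out it passed only without 4NQO array 3, and the adjusted p reached 0.128 without IL-1Ra array 2. It was also lost after cyclic loess scaling and with the 6 arrays of both groups alone. A second probe set of Slc16a1, dim with a mean of 3.64 log2, gave -0.32 in 4NQO against normal (limma adjusted p = 0.221). The mean of both probe sets lost both calls.

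The promoter window of Slc16a1 lies at chr2:194812410-194812659 on the plus strand. The capitals mark an antioxidant response element match 223 bases before the start and an E-box 216 bases before it, which share 2 bases.
Slc16a1: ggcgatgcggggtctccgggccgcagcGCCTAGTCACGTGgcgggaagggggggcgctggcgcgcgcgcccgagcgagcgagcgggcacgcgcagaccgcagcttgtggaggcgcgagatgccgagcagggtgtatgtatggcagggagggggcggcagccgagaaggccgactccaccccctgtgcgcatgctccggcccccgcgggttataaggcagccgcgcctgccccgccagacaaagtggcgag

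Slc16a9 (MCT9), a carrier of carnitine and creatine, was 5.06, 5.39 and 4.81 log2 in normal, 6.09, 6.01 and 6.54 in 4NQO and 5.62, 5.60 and 6.01 in IL-1Ra. The 4NQO arrays lay above all normal arrays by a clear gap, and the IL-1Ra arrays lay between without overlapping either, the highest of them at the lower edge of the 4NQO range. The difference of 4NQO from normal was 1.13 log2 (95% interval 0.70 to 1.55, limma adjusted p = 0.00868), and it passed with each array left out. Slc16a13 was 4.76, 4.66 and 5.12 log2 in normal and 5.34, 5.59 and 5.99 in 4NQO, a difference of 0.79 (limma adjusted p = 0.026), with 5.28, 5.29 and 5.72 in IL-1Ra. Its call was lost without normal array 1, 2 or 3 and without 4NQO array 3, with an adjusted p of up to 0.0917, and its second probe set gave 0.20 (limma adjusted p = 0.293). Slc16a3 (MCT4), a lactate exporter of glycolytic cells, did not pass at 0.20 log2 (95% interval -0.32 to 0.73, limma adjusted p = 0.578). Slc16a6 differed by 0.81 log2 (limma adjusted p = 0.0677), and its second probe set by 0.88 (limma adjusted p = 0.0606). The remaining 4, Slc16a7, Slc16a8, Slc16a10 and Slc16a12, lay between -0.16 and 0.14 log2.

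Of the 6 Slc1 carriers measured, the glutamate carrier Slc1a3 and both neutral amino acid exchangers, Slc1a4 and Slc1a5, were higher in 4NQO than in normal. The share of all probe sets that passed was 14.9%, and that of all genes 17.4%. Slc1a3 (GLAST) was 5.57, 5.47 and 5.11 log2 in normal, 6.57, 6.62 and 7.63 in 4NQO and 6.34, 5.91 and 6.72 in IL-1Ra. No 4NQO array overlapped the normal arrays. The difference was 1.56 log2 (95% interval 0.91 to 2.21, 2.94-fold, limma adjusted p = 0.0113), the largest rise among the carriers that passed. It was lost only without normal array 3, at 1.42 log2 and an adjusted p of 0.0556. Of the 2 further probe sets of Slc1a3, one gave 0.64 log2 (limma adjusted p = 0.0211) and the other 0.02 (limma adjusted p = 0.914).

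Slc1a4 (ASCT1), an exchanger of alanine, serine and cysteine, was 6.41, 5.87 and 6.31 log2 in normal, 6.60, 7.54 and 8.29 in 4NQO and 7.26, 7.19 and 7.11 in IL-1Ra. The 4NQO arrays spread over more than 1 log2 unit, and the lowest lay close to the normal arrays. The difference was 1.27 log2 (95% interval 0.52 to 2.03, limma adjusted p = 0.0346). Its call stood only without 4NQO array 1 or IL-1Ra array 3. It was lost without any normal array, without 4NQO array 2 or 3 and without IL-1Ra array 1 or 2, at 0.87 log2 without 4NQO array 3 and with an adjusted p of up to 0.112. Slc1a5 (ASCT2), the glutamine exchanger, was 6.93, 6.95 and 6.58 log2 in normal, 8.06, 7.26 and 7.92 in 4NQO and 7.49, 7.18 and 8.14 in IL-1Ra. The arrays of 4NQO and of IL-1Ra both lay above normal and overlapped each other. Against normal, the 4NQO mean differed by 0.93 log2 (95% interval 0.34 to 1.52, limma adjusted p = 0.0425), and it was lost without any normal array, without 4NQO array 1 or 3 and without IL-1Ra array 1, with an adjusted p of up to 0.147.

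The window of Slc1a4 is shown because, of the 8 carriers that passed and have a window, it alone held an amino acid response element match. It lies at chr14:98761563-98761812 on the minus strand, with the match on the other strand 235 bases before the start and an E-box 20 bases before it in capitals.
Slc1a4: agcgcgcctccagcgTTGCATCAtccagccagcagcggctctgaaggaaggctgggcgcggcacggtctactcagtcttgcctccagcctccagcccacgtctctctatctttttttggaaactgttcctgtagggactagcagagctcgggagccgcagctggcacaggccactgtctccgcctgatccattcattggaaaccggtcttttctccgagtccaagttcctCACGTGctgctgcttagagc

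Slc1a1 (EAAC1), a carrier of glutamate and cysteine, came nearest to passing in IL-1Ra against 4NQO among the carriers that did not. It was 5.68, 5.84 and 5.38 log2 in 4NQO and 6.0, 6.61 and 6.52 in IL-1Ra, a difference of 0.75 (limma adjusted p = 0.0603), and its second probe set gave 0.26 (limma adjusted p = 0.368). Slc1a2, the main glutamate carrier of astrocytes, and Slc1a6 of cerebellar neurons differed by -0.13 and -0.08 log2 in 4NQO against normal, and Slc1a6 was below the lower quartile on every array.

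The heavy chain Slc3a2 and the light chain Slc7a5 together form the large neutral amino acid exchanger LAT1, which brings in leucine, and both were higher in 4NQO than in normal. Slc3a2 (4F2hc) was 9.24, 9.18 and 9.36 log2 in normal, 9.73, 9.61 and 10.26 in 4NQO and 9.89, 9.95 and 9.59 in IL-1Ra. The arrays of 4NQO and of IL-1Ra lay above normal and overlapped each other. 4NQO differed from normal by 0.60 log2 (95% interval 0.22 to 0.99, 1.52-fold, limma adjusted p = 0.0439). It stood only without 4NQO array 2 or IL-1Ra array 3, and it was lost without any normal array, without 4NQO array 1 or 3 and without IL-1Ra array 1 or 2, at 0.41 log2 without 4NQO array 3 and with an adjusted p of up to 0.127. Slc3a1, the heavy chain of the kidney cystine carrier, differed by -0.36 (limma adjusted p = 0.323).

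Slc7a5 was 6.74, 5.91 and 6.49 log2 in normal, 7.06, 7.52 and 8.35 in 4NQO and 7.10, 7.21 and 6.73 in IL-1Ra. The 4NQO arrays lay above normal, and the lowest IL-1Ra array lay within the normal range. The difference of 4NQO from normal was 1.26 log2 (95% interval 0.57 to 1.96, 2.40-fold, limma adjusted p = 0.0266). It was lost without normal array 2 or 3, with an adjusted p of up to 0.0919. IL-1Ra differed from 4NQO by -0.63 log2 (95% interval -1.32 to 0.06, limma adjusted p = 0.305).

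Slc7a11 (xCT), the light chain that imports cystine in exchange for glutamate and feeds glutathione synthesis, did not pass in any comparison. It was 6.29, 5.68 and 6.24 log2 in normal, 6.52, 6.23 and 9.64 in 4NQO and 7.84, 8.10 and 6.93 in IL-1Ra. One 4NQO array stood far above the other two, and every IL-1Ra array lay above every normal array. Against normal, the 4NQO mean differed by 1.39 log2 (95% interval -0.26 to 3.05, limma adjusted p = 0.218) and fell to 0.30 without 4NQO array 3. IL-1Ra differed from normal by 1.55 log2 (95% interval -0.10 to 3.20, limma adjusted p = 0.246). That test draws on the 4NQO arrays only for the shared estimate of the spread, and leaving out 4NQO array 3 gave an adjusted p of 0.024.

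The windows of Slc7a5 and Slc7a11 are set side by side as those of the light chains with the largest differences, 1 called and 1 not. That of Slc7a5 lies at chr19:66872413-66872662 on the minus strand, with an E-box 179 bases before the start in capitals. That of Slc7a11 lies at chr2:136668265-136668514 on the minus strand and held none of the 3 motifs.
Slc7a5: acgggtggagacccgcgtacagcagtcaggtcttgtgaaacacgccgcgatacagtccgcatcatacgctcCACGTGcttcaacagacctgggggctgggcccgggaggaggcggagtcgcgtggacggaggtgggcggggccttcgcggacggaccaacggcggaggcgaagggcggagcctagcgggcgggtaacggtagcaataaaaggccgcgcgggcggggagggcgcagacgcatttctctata
Slc7a11: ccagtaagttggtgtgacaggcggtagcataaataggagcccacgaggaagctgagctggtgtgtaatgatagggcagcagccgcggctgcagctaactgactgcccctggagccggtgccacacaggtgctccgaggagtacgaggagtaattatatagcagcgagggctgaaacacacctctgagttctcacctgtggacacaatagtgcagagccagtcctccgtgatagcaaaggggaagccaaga

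Slc7a12 (Asc-2), a small neutral amino acid carrier, was the other carrier that fell. It was 5.21, 5.29 and 5.46 log2 in normal, 4.87, 4.92 and 5.01 in 4NQO and 4.86, 4.90 and 4.71 in IL-1Ra. Both groups given 4NQO lay below all normal arrays, in a narrow range. 4NQO differed from normal by -0.38 log2 (95% interval -0.63 to -0.14, limma adjusted p = 0.0438). It stood only without 4NQO array 3 or IL-1Ra array 3, and it was lost without any normal array, without 4NQO array 1 or 2 and without IL-1Ra array 1 or 2, with an adjusted p of up to 0.163. IL-1Ra differed from normal by -0.50 (limma adjusted p = 0.0532). The other 6 light chains, Slc7a6 to Slc7a10 and Slc7a13, lay between -0.34 and 0.28 log2 in 4NQO against normal, and Slc7a9 and Slc7a13 were below the lower quartile on every array.

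**Figure D2:**
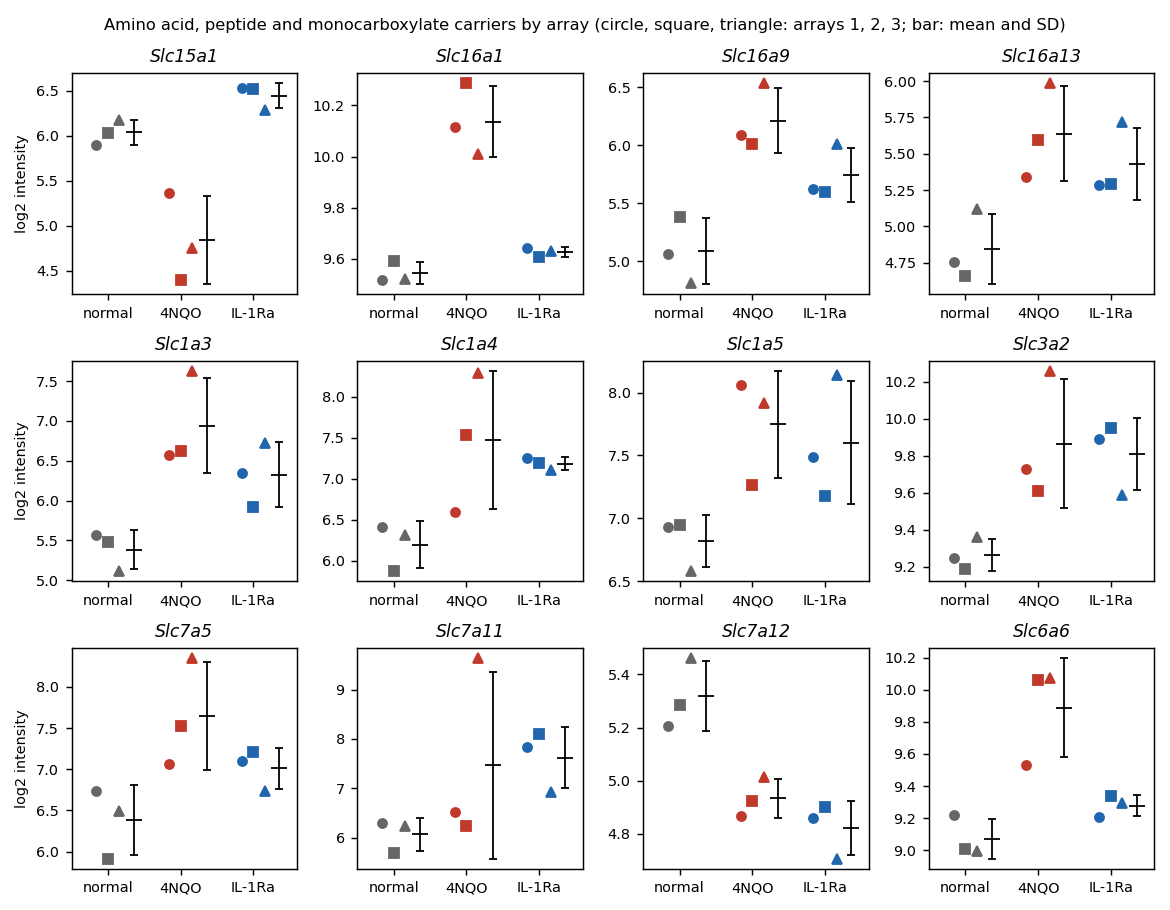
Log2 intensity on each array (circle, square and triangle for arrays 1, 2 and 3) of the 11 carriers that passed in a comparison and of Slc7a11, with bars for the group mean and SD (n = 3) and a separate vertical scale for each gene. Slc15a1 is low on all 4NQO arrays and Slc16a1 high on all of them, while Slc7a11 at 9.64 and Slc1a4 at 8.29 log2 peak on 4NQO array 3.

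The cationic amino acid transporters did not pass in any comparison. Slc7a1 (CAT1), the main carrier of arginine and lysine in many cells, was 9.02, 7.62 and 8.81 log2 in normal, 8.91, 9.02 and 10.65 in 4NQO and 9.60, 9.69 and 9.05 in IL-1Ra. The 4NQO arrays overlapped both other groups, 1 normal array was low and 1 4NQO array high, and all IL-1Ra arrays lay above all normal arrays. The difference of 4NQO from normal was 1.04 log2 (95% interval -0.01 to 2.10, limma adjusted p = 0.157) and dropped to 0.48 with array 3 of 4NQO left out. The other 4, Slc7a2, Slc7a3, Slc7a4 and Slc7a14, lay between -0.33 and -0.10 log2.

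The 9 Slc38 carriers, which import glutamine and other neutral amino acids with sodium or serve the lysosome, did not pass in any comparison, and their median difference in 4NQO against normal was 0.02 log2. Slc38a2 (SNAT2), known to be induced when amino acids run short, was 9.75, 9.68 and 9.85 log2 in normal, 9.79, 10.61 and 10.30 in 4NQO and 9.92, 9.80 and 9.51 in IL-1Ra. The lowest 4NQO array lay within the normal range. Against normal, the 4NQO mean differed by 0.47 (95% interval 0.04 to 0.90, limma adjusted p = 0.123) and that of IL-1Ra from 4NQO -0.49 (limma adjusted p = 0.21). Slc38a1 (SNAT1) differed from normal by 0.02 log2 (95% interval -0.31 to 0.35), and by -0.18 and -0.20 after new quantile and cyclic loess scaling. Slc38a4 (SNAT4), a neutral amino acid carrier of liver and muscle, was 6.68, 6.93 and 6.51 log2 in normal, 6.27, 6.39 and 5.48 in 4NQO and 5.75, 4.73 and 5.77 in IL-1Ra. Every IL-1Ra array lay below every normal array, a difference of -1.29 (95% interval -1.97 to -0.61, limma adjusted p = 0.0608). The mean of the muscle markers was also lowest in the IL-1Ra group, at 10.88 to 11.19 log2 against 11.29 to 11.43 in normal. Across the 11 markers the difference from normal had a median of -0.14 log2 and a range of -1.56 to 0.16, and 0 passed by limma. In IL-1Ra against 4NQO the range was -1.82 to 0.04, and 1 of the 11 passed as lower, where 2.33% of all probe sets passed. The part of muscle in the value of Slc38a4 was not tested.

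The 3 proton-coupled Slc36 carriers and the 2 Slc43 carriers did not pass either. Slc36a1 (PAT1), which exports small amino acids from lysosomes, came nearest to passing in 4NQO against normal. It was 5.54, 5.41 and 5.21 log2 in normal and 5.04, 4.83 and 4.92 in 4NQO, a difference of -0.46 (limma adjusted p = 0.0519). Slc36a3 differed by -0.34 (limma adjusted p = 0.0523) and Slc36a2 by 0.36 (limma adjusted p = 0.384). Slc43a1 (LAT3), a leucine carrier that needs no heavy chain, was 6.30, 6.33 and 6.02 log2 in normal, 6.99, 7.34 and 6.53 in 4NQO and 6.43, 5.74 and 6.55 in IL-1Ra. The 4NQO arrays lay above normal, and the highest IL-1Ra array just reached the lowest 4NQO array. The difference was 0.74 in 4NQO against normal (limma adjusted p = 0.0662) and -0.71 in IL-1Ra against 4NQO (limma adjusted p = 0.15).

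Of the 14 Slc6 carriers, the taurine carrier was the only one that passed by its brightest probe set. Slc6a6 (TauT) was 9.22, 9.01 and 8.99 log2 in normal, 9.53, 10.06 and 10.07 in 4NQO and 9.21, 9.34 and 9.29 in IL-1Ra. The 4NQO arrays lay above all others, and the IL-1Ra arrays touched the normal range. 4NQO differed from normal by 0.81 log2 (95% interval 0.48 to 1.15, 1.76-fold, limma adjusted p = 0.0112), and it was lost only without normal array 3, with an adjusted p of 0.055. IL-1Ra differed from 4NQO by -0.61 (95% interval -0.95 to -0.27, limma adjusted p = 0.0711). A second, dimmer probe set of Slc6a6 was 5.11, 5.35 and 5.12 log2 in normal, 6.50, 7.44 and 7.19 in 4NQO and 6.13, 6.44 and 6.06 in IL-1Ra. Its groups did not overlap, and it differed by 1.85 in 4NQO against normal (limma adjusted p = 0.00379) and by 1.02 in IL-1Ra against normal (limma adjusted p = 0.0498).

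The other Slc6 carriers did not pass by their brightest probe set. Slc6a8, the creatine carrier of muscle, was 9.82, 9.98 and 9.77 log2 in normal and 9.81, 9.76 and 9.46 in 4NQO, a difference of -0.18 (95% interval -0.49 to 0.14, limma adjusted p = 0.407). Its second probe set, also above the upper quartile on every array, gave 0.23 in 4NQO against normal (limma adjusted p = 0.431). In IL-1Ra against normal it gave 0.63 (limma adjusted p = 0.105), where the brightest gave -0.06 (limma adjusted p = 0.829). Slc6a14, a broad amino acid carrier of mucosal epithelia, was low at 2.97 to 3.85 log2 over all arrays and differed by 0.16 (limma adjusted p = 0.612). Slc6a3, the dopamine carrier, differed by -0.48 (limma adjusted p = 0.0606), and its second probe set passed as lower at -0.43 (limma adjusted p = 0.0496). Probe sets of 1 gene disagreed for Slc6a17, a neutral amino acid carrier of synaptic vesicles. Its brightest gave -0.13 log2 in 4NQO against normal (limma adjusted p = 0.562), whereas a dimmer one (chosen after its values were seen) was 4.53, 4.44 and 3.67 in normal, 6.0, 5.87 and 6.21 in 4NQO and 5.36, 5.81 and 5.90 in IL-1Ra. That probe set differed by 1.81 in 4NQO against normal (limma adjusted p = 0.00431) and by 1.48 in IL-1Ra against normal (limma adjusted p = 0.0344). The other 3 probe sets of Slc6a17 gave -0.46 (limma adjusted p = 0.0738), -0.36 (limma adjusted p = 0.0525) and -0.03 (limma adjusted p = 0.908) in 4NQO against normal, so 1 of its 5 passed. Over all 85 probe sets of the carriers, 12 were higher and 3 lower in 4NQO than in normal. This was 17.6% of them, near the 14.9% of all probe sets.

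Setting IL-1Ra against normal tongue addresses how far the carriers stood from normal under both agents. After Slc7a12 and Slc38a4, the lowest adjusted p was that of Slc16a9, at 0.65 log2 (95% interval 0.23 to 1.08, limma adjusted p = 0.0901). Slc1a3 differed by 0.94 log2 (limma adjusted p = 0.103), Slc1a4 by 0.99 (limma adjusted p = 0.129), Slc1a5 by 0.78 (limma adjusted p = 0.123) and Slc3a2 by 0.55 (limma adjusted p = 0.107). For these the arrays of the IL-1Ra group all lay above normal. The count of 0 changed when 4NQO arrays, which enter this comparison only through the shared spread, were left out. It also changed with all arrays kept, as 8 carriers passed with array weights. Without 4NQO array 3, 6 carriers passed (Slc1a3, Slc1a4, Slc3a2 and Slc7a11 higher, Slc7a12 and Slc38a4 lower), without 4NQO array 2 Slc7a12 and Slc38a4 passed, and with the 6 arrays of both groups alone 8 carriers passed, 5 higher and 3 lower.

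**Figure D3:**
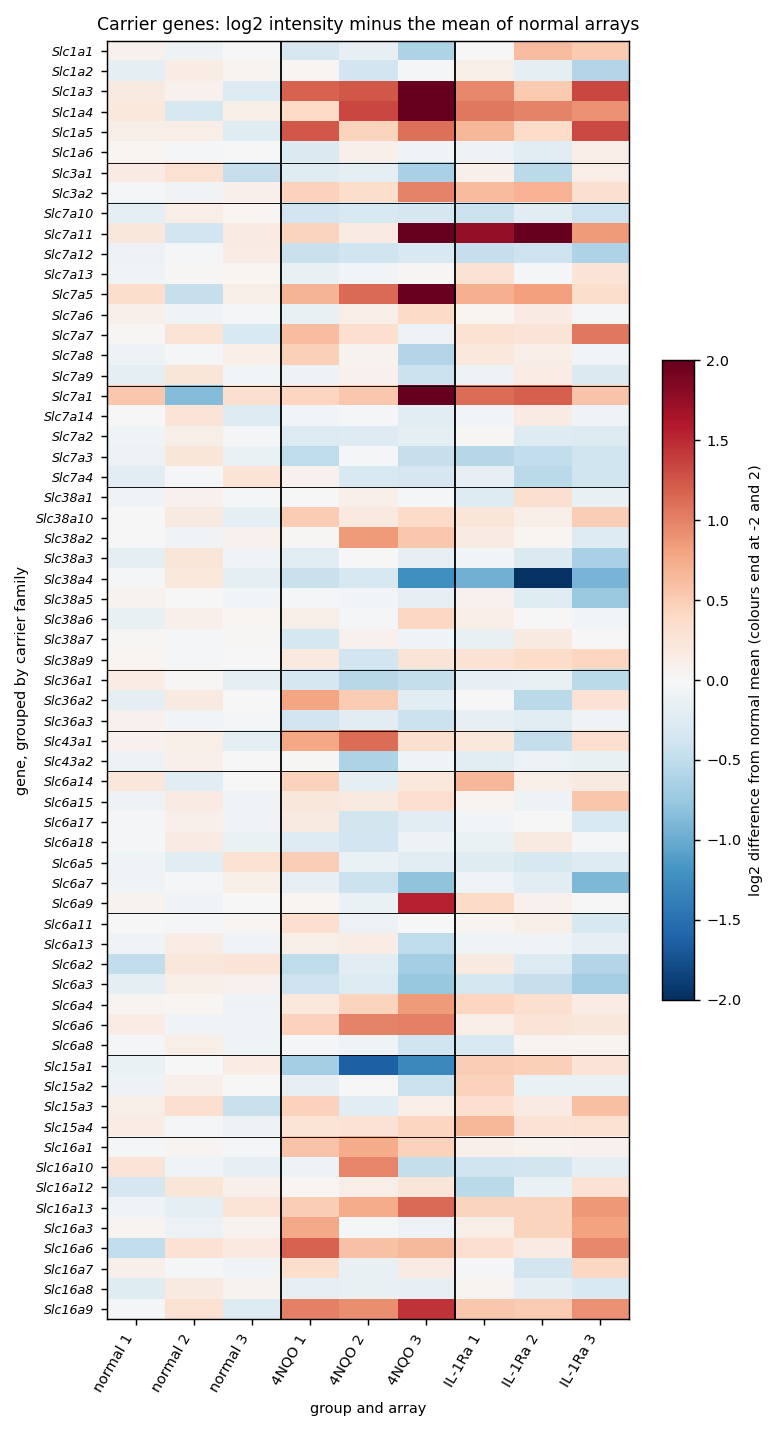
Log2 intensity of the 63 carriers (rows, grouped by family) on the 9 arrays (columns), each minus the mean of the normal arrays of that gene, with red for higher and blue for lower and colours ending at differences of -2 and 2. Red cells of the 4NQO and IL-1Ra arrays lie in single rows of several families, such as Slc1a3, Slc1a4, Slc3a2, Slc7a5 and Slc16a9. Other rows of these families do not share them, such as Slc1a2, Slc1a6 and Slc3a1. Slc15a1 is clearly blue only in the 4NQO columns.

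Genes that work beside the carriers were taken as lists for 7 pathways. In 4NQO against normal, each gene that passed was higher and none was lower. Of 20 genes of the ATF4 amino acid response, 6 rose with a median of 0.33 log2 over the list, and 7 of the 20 differences were below 0. Asns, asparagine synthetase, rose by 1.61 (limma adjusted p = 0.00621), and Psat1 of serine synthesis by 1.32 (limma adjusted p = 0.00776). The mTORC1 inhibitor Ddit4 rose by 1.27 (limma adjusted p = 0.0159), and the transcription factor Atf5 by 0.75 (limma adjusted p = 0.0295). The transcript of Atf4 itself differed by -0.09 (limma adjusted p = 0.631). Among its known targets that did not pass, Chac1, which breaks down glutathione, differed by -1.02 (limma adjusted p = 0.0785) with all 4NQO arrays below normal, Ddit3 by -0.02 (limma adjusted p = 0.939) and Trib3 by 0.03 (limma adjusted p = 0.926). Of 19 aminoacyl-tRNA synthetases, which load amino acids onto transfer RNA, 8 rose with a median of 0.40 log2 over the list, such as Eprs1 at 0.89 (limma adjusted p = 0.00431) and Yars1 at 0.77 (limma adjusted p = 0.00816). Of 7 genes of glutathione synthesis, 4 rose with a median of 1.03 log2, namely Gss, glutathione synthetase, at 1.27 (limma adjusted p = 0.0216), the transsulfuration enzymes Cbs at 1.03 (limma adjusted p = 0.018) and Cth at 0.81 (limma adjusted p = 0.0375), and the transcription factor Nfe2l2 at 0.62 (limma adjusted p = 0.0156). These medians stand beside 0.01 for all probe sets and 0.08 for all genes. The shares that passed were 30% of the ATF4 list, 42.1% of the synthetases and 57.1% of glutathione synthesis. Among all probe sets 14.9% passed, and among all genes 17.4%. The 7 lists and the cell type markers were fitted with the deposited scaling only. How far their calls rest on it was not tested.

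Of 5 partner proteins of the carriers, Emb, embigin, a chaperone of monocarboxylate carriers, rose by 1.23 log2 (limma adjusted p = 0.012), while basigin (Bsg), the usual partner of MCT1, differed by 0.09 (limma adjusted p = 0.611). Of 19 genes of amino acid sensing by mTORC1, Rragc and Nprl2 rose, by 0.49 (limma adjusted p = 0.0192) and 0.48 (limma adjusted p = 0.0259). Of 10 enzymes of creatine, taurine and lactate metabolism, Csad, which makes the precursor of taurine, rose by 0.59 (limma adjusted p = 0.0307). The shares that passed were 20% of the partner proteins, 10.5% of the sensing list and 10% of these enzymes. Those of the sensing list and the enzymes lay below the 14.9% of all probe sets and 17.4% of all genes. None of 13 genes of glutamine, glutamate and branched-chain metabolism passed, and 4 of them had an unadjusted limma p below 0.05, which 32.9% of all probe sets had. In IL-1Ra against 4NQO, 0 genes of the 7 lists passed by limma. The number with an unadjusted limma p below 0.05 was 7 of 19 among the synthetases and 0 to 2 in each other list, against 19% of all probe sets. Asns was higher in IL-1Ra than in normal, by 1.53 (limma adjusted p = 0.0344), and so was Psat1, by 1.11 (limma adjusted p = 0.044). Yars1 was higher by 0.78 (limma adjusted p = 0.0364), Tars1 by 0.61 (limma adjusted p = 0.0456) and Rragc by 0.53 (limma adjusted p = 0.0469). In that comparison 10% of the ATF4 list, 10.5% of the synthetases and 5.26% of the sensing list passed. Among all probe sets 1.87% did, and among all genes 2.2%.

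**Figure D4:**
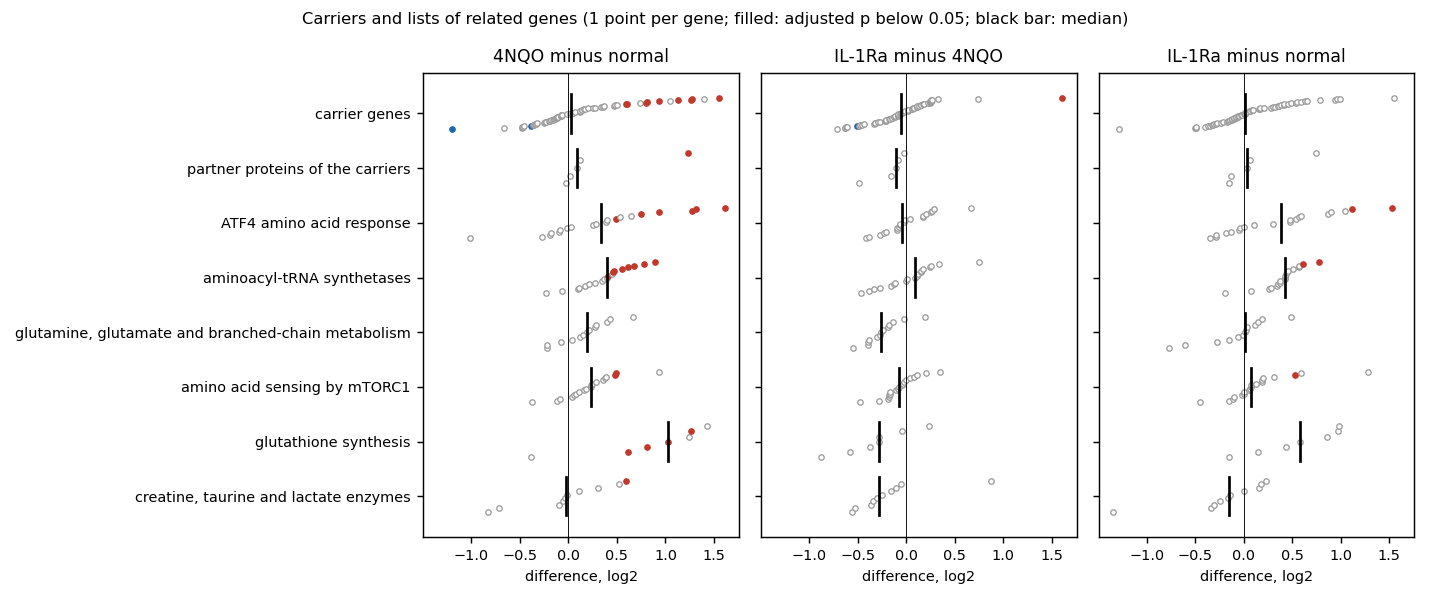
Log2 differences of the 63 carriers and of the genes of 7 related lists (rows) in the 3 comparisons (panels), with 1 point per gene, filled where the limma adjusted p was below 0.05, and a black bar for the median. In 4NQO against normal the medians of glutathione synthesis (1.03), the synthetases (0.40) and the ATF4 response (0.33) lie right of that of the carriers (0.03), and all filled points of the 7 lists are on the right.

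The calls of 4NQO against normal differed in how far they rested on single arrays and on the scaling. Slc15a1, Slc16a1 and Slc16a9 passed with each of the 9 arrays left out. With 1 array left out, 3 to 13 carriers passed, the fewest without normal array 3. After a new quantile normalization or cyclic loess 6 carriers passed, 5 higher and 1 lower, and the calls of Slc1a4, Slc1a5, Slc3a2, Slc7a5 and Slc7a12 were lost under both. Of all calls in that comparison 63.4% were higher, against 51.9% after quantile normalization and 47.7% after cyclic loess. In IL-1Ra against 4NQO the share was 68.6%, against 76.1% and 79.9%, and in IL-1Ra against normal 71.1%, against 46.3% and 35.1%.

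**Figure D5:**
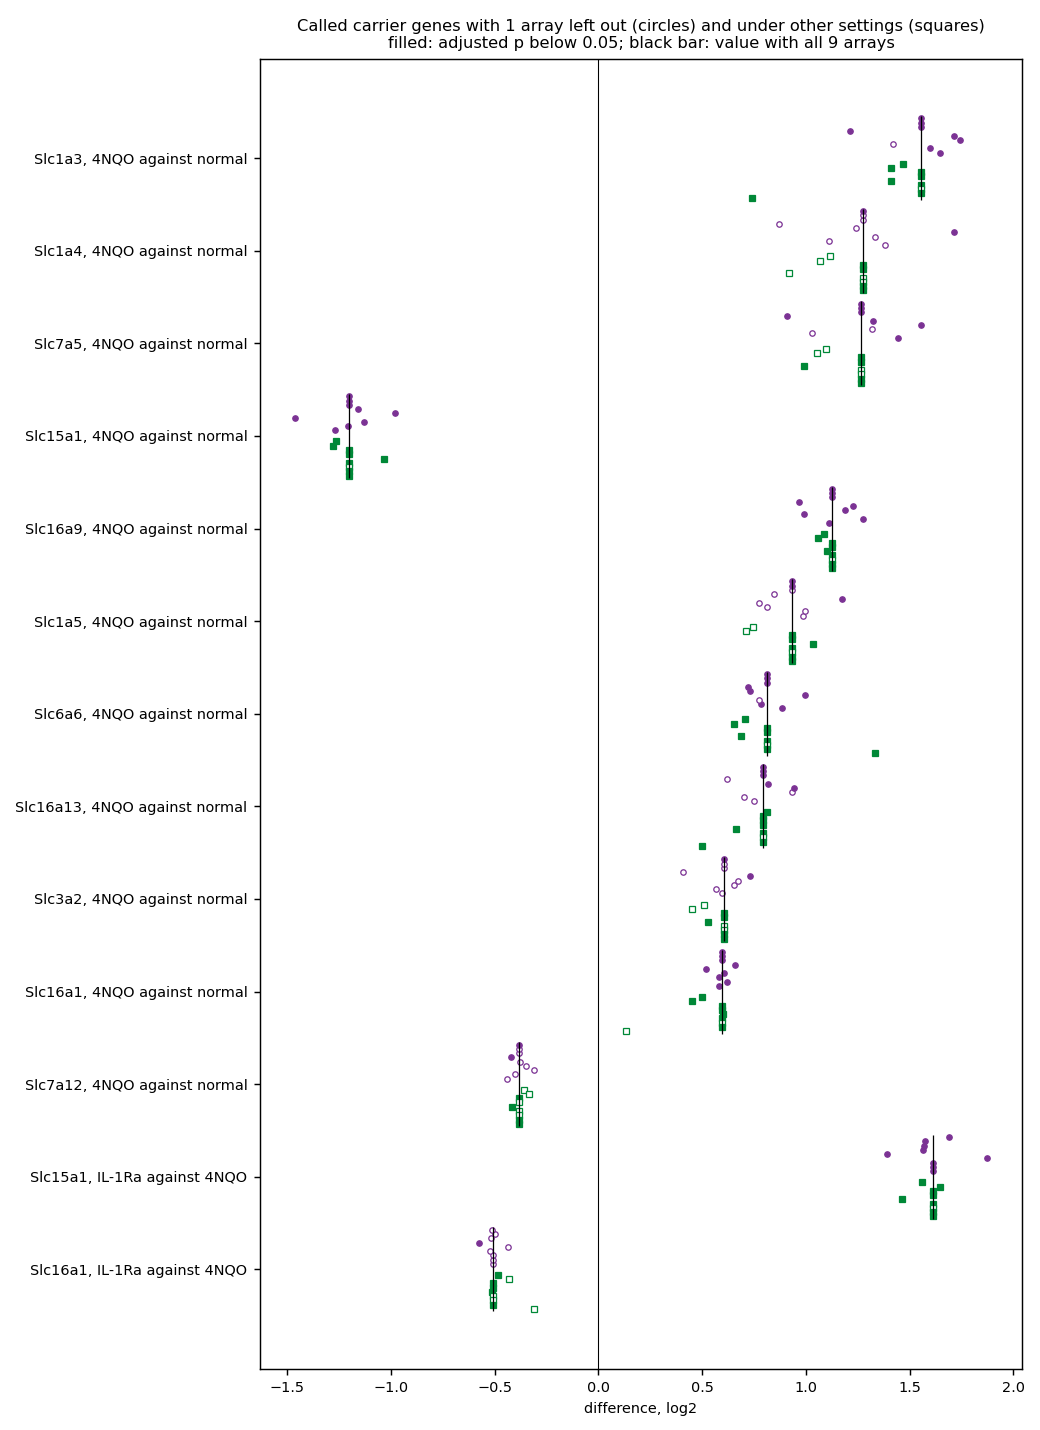
Log2 differences of the calls of the carriers (rows) with 1 array left out (circles) and under 9 other settings (squares), filled where the adjusted p stayed below 0.05, with a black bar for the value from all 9 arrays. All points keep the sign of the bar, Slc15a1, Slc16a9 and Slc16a1 in 4NQO against normal have filled circles throughout, and Slc16a1 in IL-1Ra against 4NQO has 1 filled circle.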

How the data were processed

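Biotin-labelled cRNA from 9 rat tongue samples was hybridised, each sample to an Affymetrix rat expression array of its own. The submitters' notes name Affymetrix Expression Console and RMA. RMA corrects background, is meant to equalise the arrays and summarises probe sets, and so can hide a shift common to most genes. The values the authors deposited are linear intensities, 1 for each probe set in each sample, and their log2 was used here. The 57 control probe sets were left out, which left 31042. Over these the lower quartile was 3.73 to 3.78 log2 in normal, 3.61 to 3.66 in 4NQO and 3.60 to 3.70 in IL-1Ra. The upper quartile was 7.04 to 7.08, 7.21 to 7.28 and 7.16 to 7.26 in the same order. The deposited arrays were therefore not equal in spread. No detection call was used, and 8 of the 63 carriers were below the lower quartile on every array.

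Groups followed the treatment label, and samples were numbered in accession order, as a name only. Group means were compared with limma 3.58.1 in R 4.3.3 (lmFit and eBayes, 6 residual and 4.01 prior degrees of freedom, two-sided, Benjamini-Hochberg over all probe sets within each of 3 comparisons). The procedure was tested on simulated data. Other settings were 2 scalings, a filter on the 40% dimmest probe sets, a trended robust variance, array weights, 6 arrays alone, the methods' t-test (Student), 1 probe set per gene, the mean of probe sets and each array left out. Promoters were read from RefSeq (GRCr8) and figures drawn with matplotlib 3.10.9 in Python 3.11.15.

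The carriers and lists were chosen with earlier results of these data known, and the motifs and the windows shown after the values of the carriers were seen. Named genes were all carriers that passed, 12 fixed carriers whatever their values, up to 3 with the next lowest adjusted p in each comparison and up to 4 of each list. Other members of a family are given, or are covered only by the statement that they did not pass. Atf4, Bsg, Asprv1, Chac1, Ddit3 and Trib3 were added after their values were seen. The number of arrays limits the precision.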

Additional observations from a re-analysis of the deposited data

How the results depend on the processing

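Over 18 other settings, 38 of 52 differences of named carriers kept their direction, and each called difference did. In 4NQO against normal 11 carriers passed, against 6 after quantile normalization, 6 after cyclic loess, 7 with the 6 arrays alone and 0 by the methods' t-test after Benjamini-Hochberg adjustment (10 at its unadjusted p with a fold of 1.5, 4 with a fold of 2), and 3 to 13 with 1 array left out (3 without normal array 3, 5 without normal array 2, 6 without normal array 1, 7 without IL-1Ra array 1). In IL-1Ra against 4NQO 2 passed, against 1 with the 6 arrays alone, 0 by the adjusted t-test (3 and 1 unadjusted, with the same folds), 1 with the mean of probe sets and 1 to 3 with 1 array left out. In IL-1Ra against normal 0 passed, against 1 with the dimmest 40% left out, 8 with array weights, 8 with the 6 arrays alone, 1 with 1 probe set per gene, 1 with the mean of probe sets and 0 to 6 with 1 array left out (6 without 4NQO array 3). The cause was not tested.

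Directions turned only for differences that had not passed. In 4NQO against normal Slc38a1 went to -0.18 (quantile) and -0.20 (cyclic loess), Slc16a3 to -0.0027 (cyclic loess) and Slc6a8 to 0.029 (mean of probe sets). In IL-1Ra against 4NQO Slc3a2 went to 0.024 (cyclic loess) and 0.047 (weights), Slc1a4 to 0.040 (weights), Slc7a1 to 0.24 (weights) and Slc38a1 to 0.0015 (quantile), 0.038 (cyclic loess) and 0.020 (weights). In IL-1Ra against normal Slc38a2 went to 0.00097 (weights), Slc38a1 to 0.045 (weights), Slc16a1 to -0.17 and Slc6a8 to 0.28 (mean of probe sets).

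With 1 array left out, the range in 4NQO against normal was -0.022 to 0.064 for Slc38a1 and -0.076 to 0.37 for Slc16a3. In IL-1Ra against 4NQO it was -0.46 to 1.24 for Slc7a11, -0.18 to 0.14 for Slc3a2, -0.42 to 0.064 for Slc1a5, -0.73 to 0.12 for Slc1a4, -0.22 to 0.071 for Slc38a1, -0.39 to 0.48 for Slc7a1 and -0.014 to 0.31 for Slc6a14. In IL-1Ra against normal it was -0.10 to 0.10 for Slc38a2, -0.20 to 0.088 for Slc38a1 and -0.12 to 0.058 for Slc6a8.

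No paired analysis was possible because the labels give no replicate number shared between the groups.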

Other observations

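Slc6a20a, a carrier of proline and other imino acids, has a letter after its number and was therefore not counted among the 63 carriers. It was 5.83, 5.97 and 5.98 log2 in normal, 5.46, 5.65 and 5.41 in 4NQO and 5.81, 5.80 and 5.68 in IL-1Ra. The 4NQO arrays lay below all others, at a difference of -0.42 from normal (95% interval -0.66 to -0.18, limma adjusted p = 0.0293), and IL-1Ra differed from 4NQO by 0.26 (limma adjusted p = 0.228).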
